A study of Drosophila melanogaster with 3 samples.

Results

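The bone morphogenetic protein (BMP) pathway of Drosophila melanogaster was examined for binding of CG17385 at 10 genes chosen by name: the ligand genes gbb and scw, the receptor genes tkv, sax, put and wit, the SMAD genes Mad and Med, the inhibitory SMAD gene Dad, and shn, which encodes a DNA-binding partner of the SMADs. These are 10 of 13945 protein-coding genes in the annotation, all 10 symbols were found, and each was taken with 5 kb of sequence on either side. CG17385 was profiled by chromatin immunoprecipitation and sequencing (ChIP-seq) in whole embryos of mixed sex, aged 0 to 24 h, from 1 transgenic line that stably expresses CG17385 with green fluorescent protein (GFP) at its C-terminus. There are 3 biological replicates of this 1 group and no second condition, so no comparison between conditions could be made. The antibody label names CG17385, and 1 descriptive line of the labels speaks of an input control although the assay label names a transcription factor ChIP. They were taken as ChIP samples here. A whole embryo mixes all cell types and a wide range of ages, and the peak lists hold no expression values against which the tissue could be checked.

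In BMP signalling a secreted dimer of ligands binds a complex of type I and type II receptor kinases, which phosphorylates the receptor-regulated SMAD Mad. Phosphorylated Mad joins the common SMAD Medea (Med), enters the nucleus and binds target genes, in many cases with the zinc finger protein Schnurri (shn), with which it represses the gene brk. In the fly embryo the pathway is known for patterning the dorsal side, where Dpp and Screw (scw) act together, and later for heart, gut and neuromuscular development. Peaks were read from the list of the authors' 3 replicates pooled, which holds 30000 peaks, and from the 7588 of them that passed the authors' irreproducible discovery rate step (IDR peaks). The summit of a peak is its highest point, and its signal is the authors' own score, on a scale that is not stated, used here to rank peaks within 1 list. The number of reads behind each peak is unknown.

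The 6 sequences that follow are shown because they lie under member summits that the results turn on. The first is the strongest summit at Mad, at chr2L:3159278-3159478, and the next is a tkv summit at chr2L:5245576-5245776. Both carry a repeat of GAA, which was the sequence most enriched at CG17385 summits as a whole. The other 4 summits carry none of the enriched words. They are the other strong Mad summit at chr2L:3153320-3153520, the strongest summit inside Dad at chr3R:17065041-17065241, the strongest wit summit at chr3L:4070494-4070694 and the sole put summit at chr3R:14624222-14624422. Each runs from 100 bp before the summit to 100 bp after it, on the plus strand of the Release 6 genome (dm6), 5′ to 3′. Capitals mark matches, on either strand, to the 10 words of 8 bases with the highest ratio of summits to flanks.
Mad 3159378: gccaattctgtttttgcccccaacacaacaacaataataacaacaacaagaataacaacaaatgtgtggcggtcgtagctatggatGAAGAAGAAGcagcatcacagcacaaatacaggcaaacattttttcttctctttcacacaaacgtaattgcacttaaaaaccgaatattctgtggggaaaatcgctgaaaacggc
tkv 5245676: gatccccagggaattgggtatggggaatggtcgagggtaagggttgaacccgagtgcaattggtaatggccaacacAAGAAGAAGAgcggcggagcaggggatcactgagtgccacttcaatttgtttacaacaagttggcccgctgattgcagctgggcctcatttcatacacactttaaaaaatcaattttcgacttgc
Mad 3153420: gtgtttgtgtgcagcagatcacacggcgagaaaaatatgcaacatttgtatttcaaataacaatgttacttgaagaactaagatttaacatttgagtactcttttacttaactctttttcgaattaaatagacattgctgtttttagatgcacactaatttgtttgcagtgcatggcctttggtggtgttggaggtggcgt
Dad 17065141: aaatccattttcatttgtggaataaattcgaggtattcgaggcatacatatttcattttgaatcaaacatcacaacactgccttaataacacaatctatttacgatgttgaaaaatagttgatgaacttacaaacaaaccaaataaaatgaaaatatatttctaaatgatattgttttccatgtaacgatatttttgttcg
wit 4070594: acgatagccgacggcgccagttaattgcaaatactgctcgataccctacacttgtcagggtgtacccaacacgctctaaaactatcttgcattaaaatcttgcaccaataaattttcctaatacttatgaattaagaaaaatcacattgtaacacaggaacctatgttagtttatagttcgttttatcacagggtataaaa
put 14624322: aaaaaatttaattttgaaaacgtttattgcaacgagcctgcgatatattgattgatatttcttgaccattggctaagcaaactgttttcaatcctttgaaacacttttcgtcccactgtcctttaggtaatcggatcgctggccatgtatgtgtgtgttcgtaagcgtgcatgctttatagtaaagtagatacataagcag

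IDR summits lay in or near most of the 10 genes, but unevenly. Of the 10 genes, 9 had an IDR summit in the gene or within 5 kb, the exception being scw, beside 57.6% of all protein-coding genes. An IDR summit lay inside the gene itself at 6 (tkv, put, wit, Mad, shn and Dad), beside 18.2% of all genes. It lay within 500 bp of one of the gene's own start sites at 5 (tkv, wit, Mad, shn and Dad), beside 26.9% of all genes. At sax, Med and gbb every IDR summit in the window lay outside the gene and nearest to the start site of another coding gene. When 1 replicate was left out and a summit had to be among the 7588 strongest peaks of both others, put was lost without replicate 1 or 2, and Dad lost its start-site summit without replicate 1 or 3. Some of the members are long genes, and wider windows held a summit more often. The share of all genes with an IDR summit was 52.3% for windows of 10 to 15 kb, which is the class of sax, Med, gbb and scw. It was 71.5% for windows of 15 to 30 kb, the class of put, wit, Mad and Dad, and 78% for windows of 30 to 1000 kb, the class of tkv and shn. The shares of 18.2% and 26.9% were not split by width or by number of start sites. The members had a median window of 17.1 kb, beside 12.2 kb for all protein-coding genes. No test over genes was made.

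**Figure D1:**
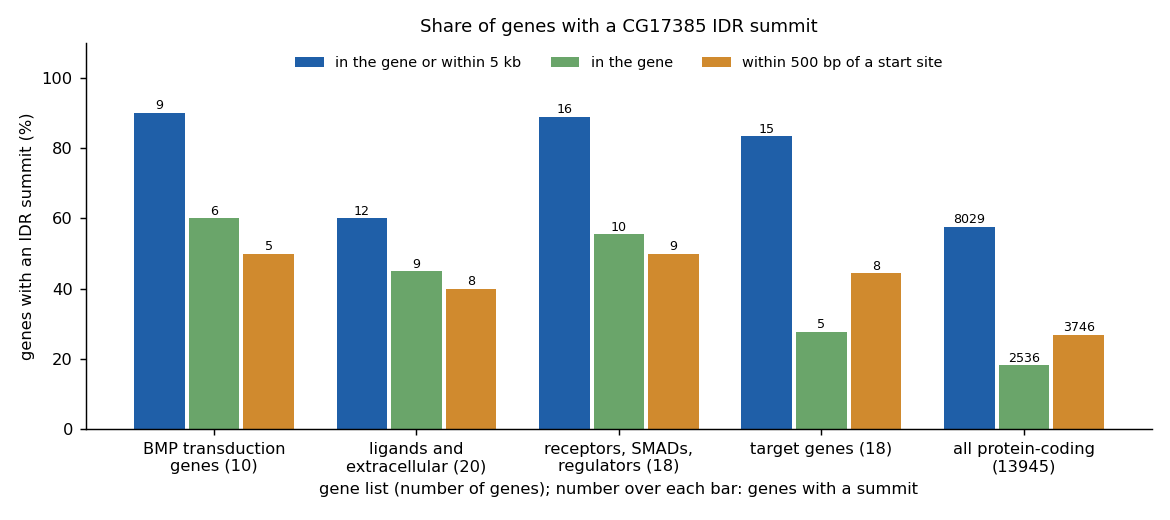
Percent of genes (vertical axis) with an IDR summit in the gene or within 5 kb, in the gene, or within 500 bp of a start site, for the 10 BMP transduction genes, 3 lists of other pathway genes and all protein-coding genes. The number over each bar is the count of genes; the 10 genes reach 9, 6 and 5, and all protein-coding genes 57.6%, 18.2% and 26.9%.

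In all, 45 IDR summits, in 43 peak intervals, fell in the 10 windows. Of the summits shn held 19, Dad 8, tkv 6, and wit, Mad and Med 3 each. The genes put, sax and gbb had 1 each. Inside the genes lay 35 summits, 34 in introns and 1 in the 5′ UTR of Mad. A summit within 500 bp of the gene's own start site was the less usual case, with 7 of 45, and 35 summits were over 1 kb from every start site of their gene. Counting start sites of any protein-coding gene, 12 of 45 member summits (26.7%) lay within 500 bp of one, beside 45.9% of all IDR summits. Without shn it was 11 of 26. For 10 summits the nearest coding start site belonged to a neighbouring gene, and 5 of these lay within 500 bp of it, at puml, CycG, Mnat9, Ns1 and eIF6.

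The ligand genes differed from each other. gbb, glass bottom boat, encodes a BMP ligand used widely in the fly, including at the neuromuscular junction, and scw encodes the ligand that acts early in dorsal patterning. gbb (FBgn0024234, chromosome 2R, plus strand, 23851562 to 23853247) had 1 IDR summit, of signal 2073, 1161 bp upstream of the gene. Its ranks in the replicates were 309, 155 and 133 (mean 199 ± 95.9, SD, n = 3). The position is 100 bp upstream of the start site of eIF6, a translation factor gene, inside an intron of ytr, and 71 bp downstream of the start of asRNA:CR45928. The summit closest to the gbb start, 92 bp upstream, was nearer to the start site of ytr, 10 bp downstream of it and in the ytr 5′ UTR. This summit was in the pooled list only, with a signal of 153.9, no counterpart in replicate 1 and ranks 6919 and 7788 in replicates 2 and 3. scw (FBgn0005590, chromosome 2L, minus strand, 19699379 to 19700968) had no summit in its window in the IDR list, the pooled list or any replicate list. The nearest pooled summit lay 11186 bp away, with a signal of 43.3, and the nearest IDR summit 57821 bp away, near Dus3. A pooled summit was found in the window of 81% of all protein-coding genes. Since each list ends at its 30000th peak, weaker signal at scw would not be listed.

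Of the receptors, tkv encodes the type I receptor for Dpp, sax the other BMP type I receptor, put the type II receptor shared with activin signalling, and wit the type II receptor needed at the neuromuscular junction. tkv (FBgn0003716, chromosome 2L, minus strand, 5219000 to 5271384) is nearly as long as shn but had 6 IDR summits, all intronic and none among the strongest 1000. Its highest signal, 363.9 at 5238460, ranked 2898 in the IDR list and 2740, 2950 and 3614 in the replicates. Of its 4 start sites, the third had a summit 56 bp upstream with a signal of 195.9 and ranks 7289, 6592 and 5927, and stood 23 bp from the start of the pseudogene CR14033. The fourth had one 52 bp upstream with a signal of 342.8 and ranks 1453, 4233 and 5438. The first 2 start sites had none within 500 bp, and the IDR summit closest to the first (signal 177.7) was nearest to the start of lncRNA:CR44744 and, among coding genes, of Cyp4ac1. The tkv summit with the GAA repeat printed above, 1537 bp upstream of the second start site, had a signal of 351.7 and ranks 4103, 3309 and 2558. For 280 genes of similar width the median was 2 IDR summits and the 90th percentile 9, so that tkv, with 6, lay within the usual range.

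wit (FBgn0024179, chromosome 3L, minus strand, 4064152 to 4071717) had the strongest summit within 500 bp of an own start site among the 4 receptor genes. The summit 74 bp upstream of its 1 start site had a signal of 483.2 and ranks 1760, 2878 and 1960. A stronger one lay in an intron 1123 bp downstream of the start, with a signal of 658.0 and ranks 1743, 1101 and 1284, and stood 1105 bp from the start site of CG32259. Between them a weak summit, 548 bp downstream, had a signal of 167.2 and ranks 6779, 3918 and 9020. The order of the stronger pair was the same in all replicates, although in replicate 1 their ranks differed by few places.

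Summits at the start sites of put and sax were weak and not in the IDR list. The sole IDR summit of put (FBgn0003169, chromosome 3R, minus strand, 14619030 to 14625703) lay 1381 bp inside its gene, in an intron, with a signal of 204.5 and ranks 4486, 5113 and 10506. At the put start site itself, 17 bp downstream, the pooled list had a summit of signal 156.1 outside the IDR list, with ranks 18717, 12689 and 4897. It ranked higher in replicate 3 than in replicates 1 and 2. The put start site was the nearest to it, but His4r also starts close by, at 14625788. sax (FBgn0003317, chromosome 2R, plus strand, 7806484 to 7810067) had no IDR summit in the gene. The 1 in its window, of signal 731.7 and ranks 1417, 1525 and 920, lay 2286 bp past the gene and 151 bp upstream of the start site of puml. The summit nearest the first sax start site, 50 bp upstream, was as near to the start site of Nop17l, 49 bp away. It was in the pooled list only, with a signal of 118.6, and within 100 bp of it only replicate 3 had a summit, at rank 9250. Replicate 1 had a summit of its own 81 bp downstream of the first sax start site, at rank 7879. Replicate 2 had none within 500 bp of that sax start site.

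Mad, the receptor-regulated SMAD, had the strongest summit within 500 bp of an own start site among the 10 genes. The gene (FBgn0011648) lies on chromosome 2L from 3146056 to 3159643 on the minus strand. The summit 265 bp downstream of its first start site, in an intron, had a signal of 1617 and ranks 272, 384 and 395 (mean 350.3 ± 68.1, SD, n = 3). It is the first sequence printed above. In the same interval a smaller summit, 59 bp downstream of the start and in the 5′ UTR, had a signal of 288.1. Its ranks were 1982, 11793 and 8793, a much wider spread than that of its neighbour. The remaining Mad summit, 667 bp upstream of the second start site, had a signal of 1006 and ranks 844, 555 and 901.

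Med (FBgn0288966, chromosome 3R, plus strand, 31611046 to 31615375), the common SMAD, had 3 IDR summits in its window and none in the gene. The strongest, of signal 1496 and ranks 551, 294 and 381, lay 791 bp past the gene and 6 bp upstream of the start site of Mnat9. The other 2 lay upstream of Med in CycG, which encodes cyclin G, with signals of 244.5 and 214.5. The first of these, 51 bp downstream of the CycG start site, had no match in replicate 1 and ranked 3690 and 4067 in replicates 2 and 3. Near the Med start site, 154 bp upstream, a pooled summit of signal 69.1 was matched within 100 bp in replicate 1 alone, at rank 27303. This summit was nearer to another start site of CycG, 86 bp downstream of it. Replicates 2 and 3 had summits nearer the Med start site, 31 bp upstream at rank 16355 and 60 bp downstream at rank 20330. Each replicate thus listed a weak summit near these neighbouring start sites of Med and CycG.

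shn held both the most summits and the strongest one among the 10 genes. Schnurri, its product, is a large zinc finger protein that binds DNA together with Mad and Med. The gene (FBgn0003396) lies on the plus strand of chromosome 2R from 11159086 to 11217394 and has 5 annotated start sites. Its strongest IDR summit, at 11202639, had a signal of 3434 and rank 34 of 7588 in the IDR list. In the replicate lists of 30000 peaks it ranked 20, 61 and 33 in replicates 1, 2 and 3 (mean 38 ± 21.0, SD, n = 3), within the strongest 100 of each. It was intronic, 1990 bp upstream of the fifth start site and not at a promoter. At the second start site a summit 152 bp upstream had a signal of 1313, with ranks 426, 1552 and 340. Another, at 11184557 and 1333 bp downstream of the third start site, had a signal of 1295 and ranks 508, 536 and 514. These were the closest together of the 4 shn summits that are among the strongest 1000 of the IDR list.

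The 19 shn summits, all intronic, spanned 33567 bp from 11173651 to 11207218, with gaps between neighbours of 202 to 5339 bp (median 1587). None lay near the first start site, from which the first of the 19 was 14565 bp downstream. The densest stretch of 10 kb in shn, picked from these same summits, held 10 of them, between 11194909 and 11202848. Some of the 10 are close neighbours, and those at 11202639 and 11202848 share 1 peak interval. Such a dense stretch was opened by 8 of the 7588 IDR summits (0.105%), and the median IDR summit had 2 in the 10 kb that it opens. Of all protein-coding genes 3 had more IDR summits than shn (kirre 27, bun 22 and tara 20), and ush had 19 as well. These 4 were named after their counts were seen. Among 232 genes with windows of a similar width the median count was 3, the 90th percentile 9, and 2 genes, shn included, reached 19. The strongest 7588 peaks of each replicate put 19, 19 and 17 summits in the shn window (18.3 ± 1.15, SD, n = 3), so the number varied little between replicates. The last of the 19 stood nearest to the annotated start of an inserted BS transposable element, at 786 bp. The weakest shn summit had a signal of 168.8, with ranks 4832, 6705 and 10075.

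**Figure D2:**
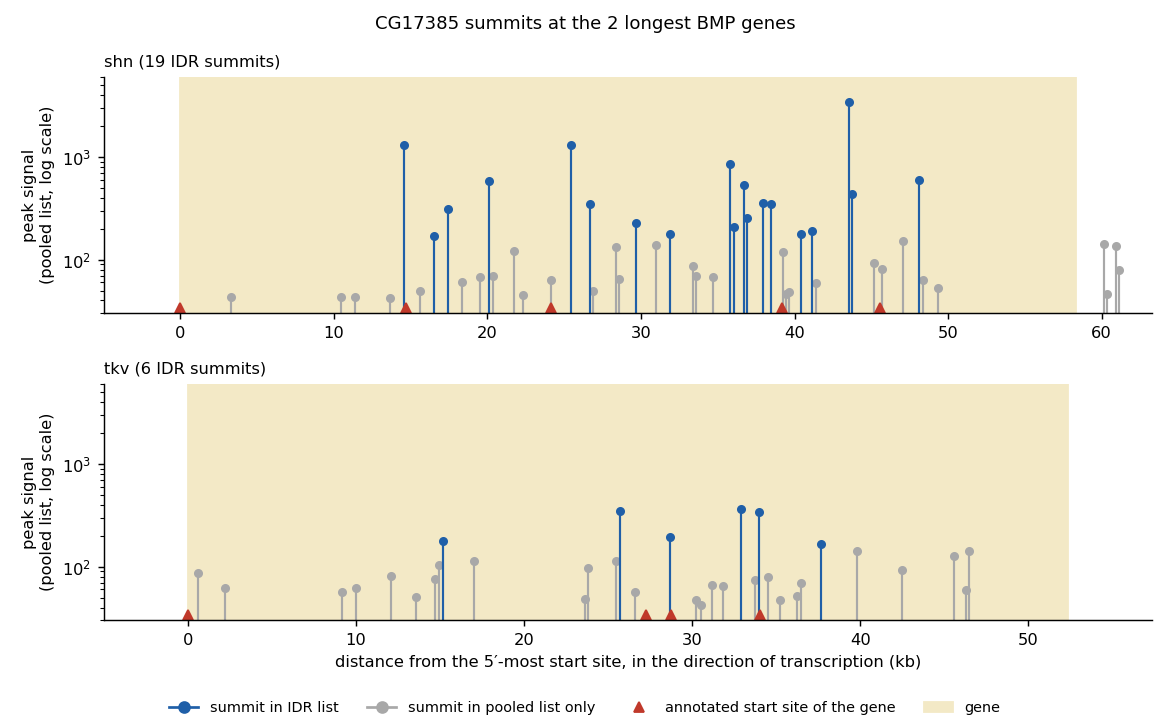
Peak signal in the pooled list (vertical, log scale) against distance from the 5′-most start site in the direction of transcription (kb) for shn and tkv, the members with the widest windows. Each stalk is a summit, blue where it is in the IDR list and grey where it is in the pooled list only; triangles are start sites and shading is the gene. The 19 blue summits of shn reach 3434, while the 6 of tkv do not pass 363.9.

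Dad, the inhibitory SMAD, is itself a target of BMP signalling and limits it by competing with Mad for the receptors. Its gene (FBgn0020493, chromosome 3R, plus strand, 17054007 to 17070408) had 8 IDR summits in a window of 26.4 kb. Among 902 genes of similar width 24 had at least as many, Dad included, and the median was 2. The strongest of the 8, of signal 2266 and ranks 140, 135 and 150 (mean 141.7 ± 7.64, SD, n = 3), lay 2283 bp past Dad and 16 bp upstream of the start site of Ns1, the gene of nucleostemin 1. Inside Dad the strongest was intronic, 11134 bp from the start, with a signal of 1021 and ranks 994, 580 and 735. The summit at the Dad start site, 5 bp upstream, was weak, with a signal of 223.6 and ranks 3631, 11313 and 5332. The count of strong peaks in the Dad window varied more between replicates than at shn, with 9, 4 and 8 among the strongest 7588 of each (7 ± 2.65, SD, n = 3).

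**Figure D3:**
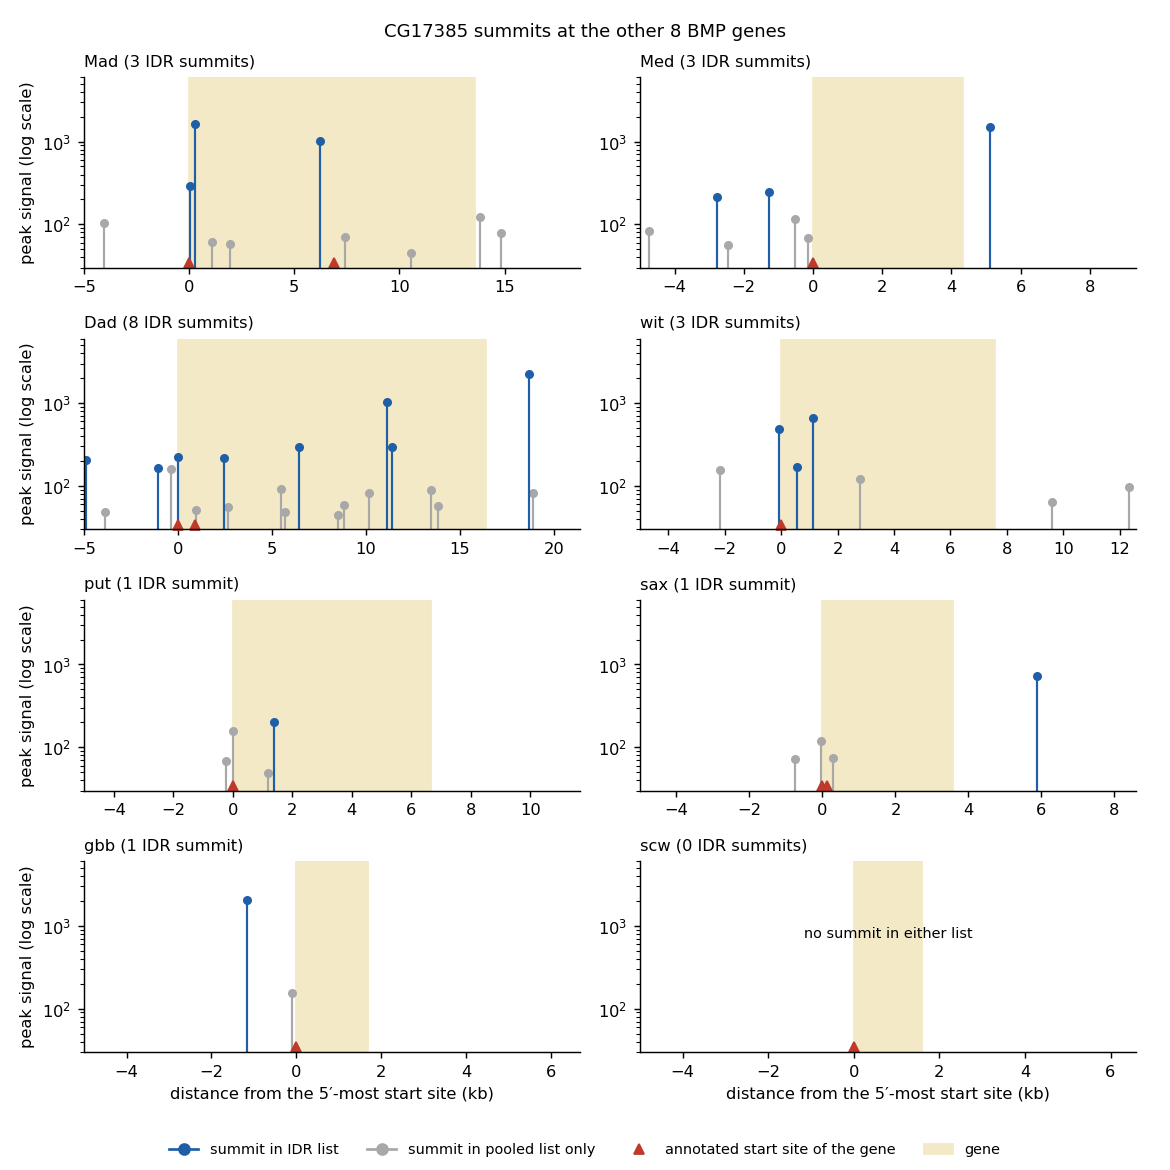
Peak signal in the pooled list (vertical, log scale) against distance from the 5′-most start site in the direction of transcription (kb) for the other 8 BMP genes. Stalks are blue for IDR summits and grey for summits in the pooled list only, triangles are start sites and shading is the gene. The strongest blue summits of Med, sax, gbb and Dad (1496, 731.7, 2073 and 2266) stand outside the shaded gene, and scw has no summit.

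Across all members the signal of the IDR summits ran from 162.2 to 3434 with a median of 342.8, beside 294.0 for the whole IDR list, which ran from 159.9 to 6471. Of the 45, 5 were among the strongest 500 IDR summits and 10 (22.2%) among the strongest 1000, which hold 13.2% of the list. Beyond rank 3794, the middle of the list, lay 21 of the 45, and 14 of the 26 that do not belong to shn. At 4 of the 10 genes, Med, sax, gbb and Dad, the strongest summit lay outside the gene and within 500 bp of the start site of a neighbour. At the edge of the IDR list, a Dad summit of signal 162.2 was just inside and another Dad summit of 159.4 just outside. At the 5 kb limit, a Dad summit 4900 bp from the gene was inside, while summits 5173 bp from shn (signal 1015), 5189 bp from sax (224.2) and 5529 bp from gbb (888.3) were outside.

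Nearly all of these summits had a counterpart in every replicate. The IDR list itself draws on the replicate lists, so such matches are not an independent check. A summit within 100 bp was present in all 3 replicate lists for 43 of 45, beside 88.6% of all IDR summits, and the 2 exceptions, at CycG near Med and at 11195114 in shn, lacked replicate 1 only. When a match had to be among the strongest 7588 of the replicate list, 26 of 45 (57.8%) were found in every replicate, beside 62.8% of all IDR summits. By replicate, 38, 36 and 36 of 45 had such a match (mean 81.5% ± 2.57, SD, n = 3). shn gave 13 of its 19 and the other genes 13 of their 26. The 10 member summits among the strongest 1000 were all matched in every replicate, none more than 42 bp away, and the median offset over the 45 was 10 bp. Across matched member summits, Spearman's rho of signal was 0.708 for replicates 1 and 2 (n = 43), 0.798 for 1 and 3 (n = 43) and 0.790 for 2 and 3 (n = 45). These are across summits, many of them in 1 gene, and 1 further file, taken here as the control, entered all 3 replicate lists. They describe the lists and carry no p.

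**Figure D4:**
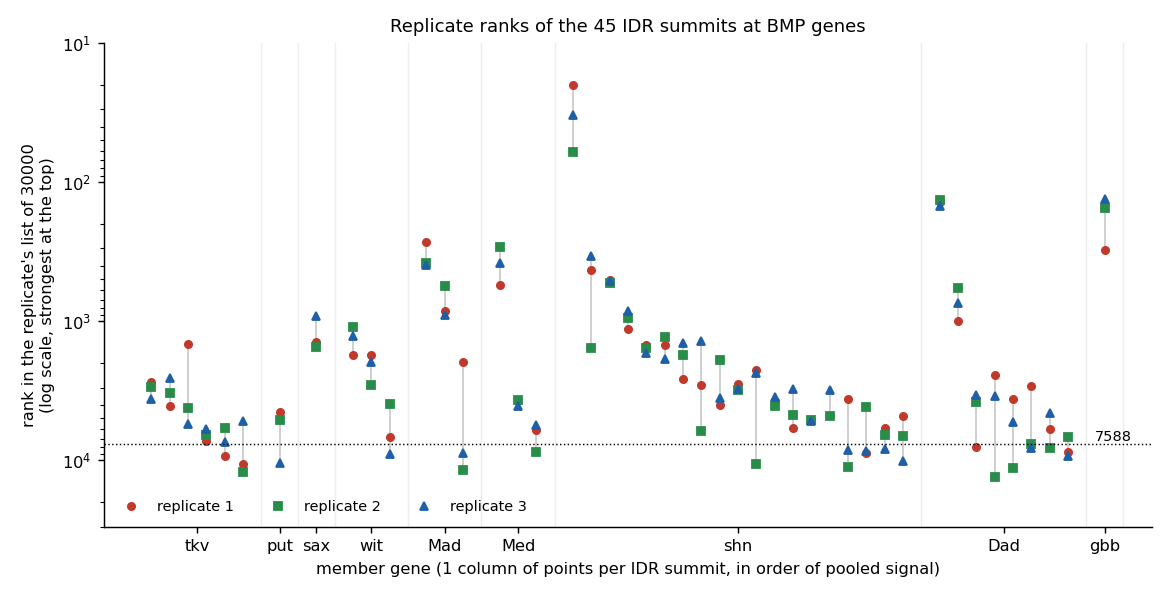
Rank of each of the 45 IDR summits in the list of 30000 of replicates 1, 2 and 3 (vertical, log scale, strongest at the top), grouped by member gene along the horizontal axis and ordered by pooled signal. The dotted line is rank 7588; the strongest summits of shn, Dad and gbb keep ranks between 20 and 309 in every replicate, while weak summits spread across the line.

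Beyond the IDR list, the pooled list had 92 further summits in the windows, for 137 in all, of which shn held 50, tkv 33 and Dad 20. Their signals ran from 41.9 to 159.4, and 20 of them had a −log10 q of at least 2. In every replicate 16 were matched, beside 17.8% of all pooled summits outside the IDR list, and 9 were matched in none. At tkv 27 of its 33 pooled summits were outside the IDR list, and 4 of these 27 were found in every replicate.

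The density of summits was set beside that of all genes. The 10 windows held 1.69 IDR summits per 10 kb, or 1.31 without shn, compared with 0.798 over the windows of all protein-coding genes, which overlap one another, and 0.567 over the main chromosomes. In the strongest 7588 peaks of replicates 1, 2 and 3 the members had 1.69, 1.47 and 1.69 per 10 kb (mean 1.62 ± 0.130, SD, n = 3), and all protein-coding windows 0.825, 0.765 and 0.826 (0.806 ± 0.0351). Without shn the values were 1.31, 1.01 and 1.42 (1.25 ± 0.210), which do not overlap those of all windows either. tkv, at 0.641, 0.801 and 1.28, overlapped them. The higher density without shn was not shared by every member. In the IDR list scw, put and sax were below the 0.798 of all windows, and gbb and tkv had 0.856 and 0.962. Mad, wit and Med had 1.27, 1.71 and 2.09 per 10 kb, though all 3 Med summits lay outside Med and nearest to other coding genes. Dad had 3.03, with 8 of the 26 summits outside shn, and 4 of these 8 lay outside the Dad gene. The replicates describe the error of the lists and not the spread between genes.

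**Figure D5:**
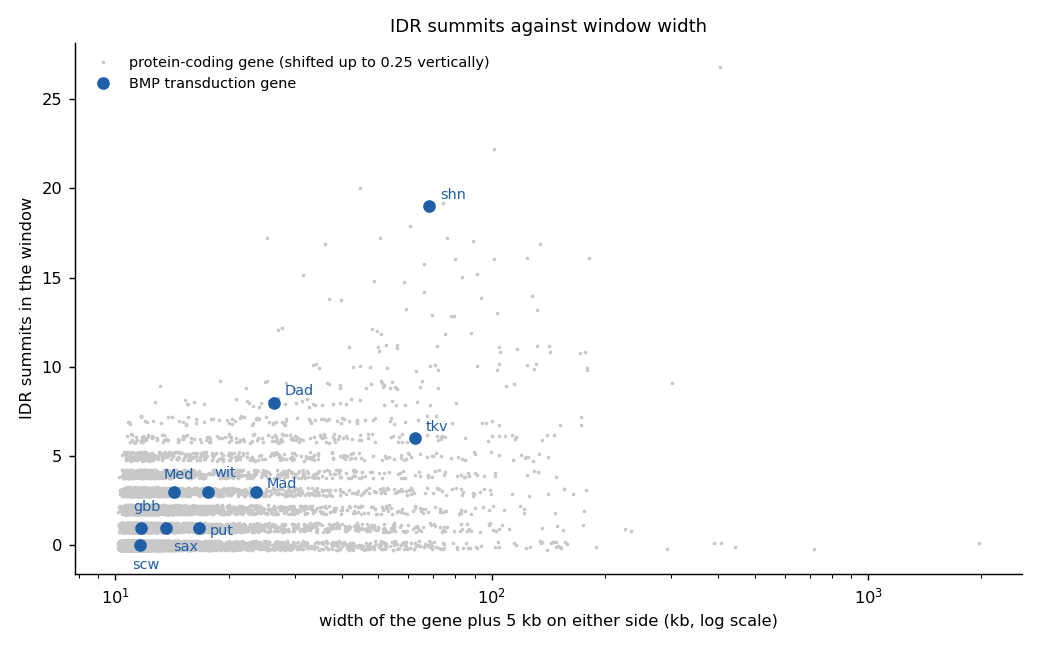
Number of IDR summits (vertical) against the width of the gene plus 5 kb on either side (kb, log scale) for all 13945 protein-coding genes in grey and the 10 BMP genes in blue. shn with 19 reaches the highest count among genes of similar width. Dad with 8 lies above the 90th percentile of 5 for its width, where the highest count is 17, and scw has 0.

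Sequence under the member summits was compared with that under all IDR summits, from 100 bp before to 100 bp after each summit and on both strands. The word AGAAGAAG had the highest ratio of summits to flanks 1 kb away, among words of 8 bases at 100 or more IDR summits. It was present at 12.3% of IDR summits, 2.00% of flanks and 3.35% of pooled summits outside the IDR list, and at 37.4% of the strongest 1000 IDR summits. Of the member summits 6 of 45 (13.3%) held it. They are the Mad and tkv summits printed above, the wit summit at its start site, the shn summits at 11202639 and 11200197, and the Dad-window summit at Ns1. In each of the 6 the word began within 30 bp of the summit. At the strongest shn summit, GAA repeats stood on both sides of it, 20 to 11 bp before and 5 to 18 bp after. By strength, 3 of the 10 member summits among the strongest 1000 carried it and 3 of the other 35. The strong summits without it included that of gbb and the second ones of Mad and of shn. Another 2 of the 10 top words overlap AGAAGAAG in the same repeat, and the other 7 were at no member summit. Any of the 10 was present at 13.3% of member summits, beside 24.3% of all IDR summits.

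Motifs of known factors were counted in the same windows. The DNA replication-related element TATCGATA, which DREF binds, was at 2 member summits, gbb and the tkv summit 56 bp upstream of the third start site, beside 2.62% of all IDR summits. In tkv it lay 15 to 8 bp before the summit. GGTCACAC, the M1BP motif of housekeeping promoters, was at 1, the 5′ UTR summit of Mad, beside 1.77%. GAGAG, the GAGA factor motif, was at 12 (26.7%), beside 28.3%. CGATA, the core of the BEAF-32 motif, which is also part of TATCGATA, was at 16 (35.6%), beside 25.5%. The pathway's own motifs were examined too. GNCGNC, a GC-rich sequence that Mad binds, was at 16 (35.6%), 10 of them in shn, beside 27.1% of all IDR summits and 36.6% of flanks. GTCTAGAC, the palindromic SMAD box, was at none, beside 0.0659%, and so was GNCGNC followed by 5 bases and GTCT, the silencer element through which Mad, Med and Schnurri repress, beside 0.198%. CAGGTA, the Zelda motif, was at none, beside 4.09%. These are matches of letters only, and their share in the members rests on few summits. The median GC content was 37.8% at member summits and 36.8% at all IDR summits.

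Other genes of the BMP and activin branches were counted from 3 lists that do not include the 10 members. The lists were written with earlier results of these data known, so their counts are a description only. Of 20 genes for ligands and extracellular regulators, 12 had an IDR summit in the gene or within 5 kb, 9 in the gene and 8 within 500 bp of a start site. Of these 8, the strongest start-site summits were at Fur1, a proprotein convertase gene (signal 1141, with Vps33B as the nearest gene), at dpp, the main ligand gene (1057), at magu (854.9) and at cv (703.3). Of 18 genes for other receptors, SMADs and intracellular regulators, the counts were 16, 10 and 9. The strongest were at sbb (1696), at sgg, the GSK3 kinase gene (1514), at babo, the activin type I receptor gene (1463, with Tom7 nearest), and at gro, the Groucho co-repressor gene (1247). Of 18 target genes, the counts were 15, 5 and 8. The strongest there were at trio (1437, with CG9205 nearest), at peb (996.2), at tin, the heart homeobox gene (917.2), and at ush (804.0). Together 43 of these 56 genes had an IDR summit in the window, 24 in the gene and 25 within 500 bp of a start site, to be read beside the 57.6%, 18.2% and 26.9% of all genes. The median window of the 56 was 20.1 kb, beside 12.2 kb for all protein-coding genes. Wider windows held a summit more often, and these shares are not matched for width. The dpp summit, 1 bp from a start site, ranked 589, 867 and 792, whereas neither gbb nor scw had an IDR summit within 500 bp of its own start site.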

How the data were processed

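Whole embryos of the CG17385-GFP line were profiled by ChIP-seq in 3 samples, labelled as biological replicates 1 to 3 of 1 group. Per the labels, chromatin was sonicated to 200 to 800 bp and coordinates are on dm6. Each peak's signal (a score of unstated scale) and its −log10 q-value were deposited by the authors. Per the text deposited with the samples, 1 further file, which that text does not describe and which was taken here as the control, enters each replicate list. The IDR list draws on the pooled and replicate lists, per the same text. The sources used here name no peak caller, aligner or IDR threshold, and depth is unknown.

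Summits were placed with Python 3.11.15, numpy 2.4.6 and pandas 2.3.3 on Ensembl release 115 genes, of which 13919 of 13920 with a shared symbol had the same coordinates in RefSeq. Sequences were read from the RefSeq copy of the Release 6 genome. Summits within 100 bp were matched; positions are 1-based. The counting code was tested on simulated data. The text names the members, the gene nearest each member summit, and up to 4 genes of each other list with the strongest start-site summit. Members and lists were chosen with earlier results of these data known. Window classes and genes of similar width (neither window below 0.8 times the other) were chosen after gene lengths were seen. Alternatives were the flank, promoter window, match distance, list threshold, annotation and leaving out each replicate.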

Additional observations from a re-analysis of the deposited data

How the results depend on the processing

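The count of 9 of 10 members with an IDR summit became 6 with the gene body alone, 8 with a 2 kb flank and 8 with the 3794 strongest IDR peaks, and stayed at 9 with a 10 kb flank, RefSeq coordinates or summits matched in every replicate. Each replicate was left out in turn, with a match required among the strongest 7588 of the others. This gave 8 to 9 members (put was lost without replicate 1 or 2) and 30 to 31 summits instead of 45. It also gave 4 to 5 members with a start-site summit (Dad was lost without replicate 1 or 3). When a match of any rank within 100 bp was enough, 43 to 45 summits were matched in all remaining replicates. The 3794 strongest IDR peaks held 24 of the 45 summits, and limiting matches to the strongest 7588 left 26 of 43. The percent of all protein-coding genes moved from 57.58 to 18.19 with the gene body alone, 43.85 with 2 kb, 71.19 with 10 kb, 42.42 with the 3794 strongest peaks, 54.01 with summits in every replicate and 48.21 to 50.66 without a replicate. Requiring a −log10 q of at least 2 left 65 of 137 pooled summits. The strongest summit of put moved from 204.5 to 537.9 with a 10 kb flank, and that of Dad from 2266 to 1021 with the gene body alone or a 2 kb flank and to 2578 with 10 kb. The 10 kb flank took in the summit of 537.9, 9654 bp from put and nearest to CG14853. It also took in that of 2578, 9533 bp from Dad and nearest to Keap1. The gene body and the 2 kb flank left out that of 2266, which lay 2283 bp past Dad. The cause of the other changes was not tested. No paired analysis was possible because there is 1 group.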
